A study of Mus musculus with 4 samples.

Results

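The genes described here are 10 members of the IL-1 system, namely the cytokines *Il1a*, *Il1b*, *Il18* and *Il33*, the receptor antagonist *Il1rn*, the receptors *Il1r1* and *Il1r2*, and the inflammasome components *Nlrp3*, *Pycard* and *Casp1*. They were taken by symbol from a table of reads counted on 49315 genes, and all 10 were among the 14840 genes compared. The RNA came from type 2 innate lymphoid cells (ILC2s) of mouse lung, which were enriched by negative selection, sorted for Thy1.2, ICOS and T1/ST2 in the absence of lineage markers, and kept in medium with IL-2. The study asked which genes differ in these cells when lung fibrosis is induced by bleomycin, a drug that injures the lung, in mice that lack *Hps1*. This gene encodes a subunit of a complex needed for lysosome-related organelles, and its loss causes Hermansky-Pudlak syndrome.

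There were 4 groups with 1 library each: WT mice given PBS (PBS-WT) or bleomycin (BLEO-WT), and *Hps1*-/- mice given PBS (PBS-HPS1) or bleomycin (BLEO-HPS1). WT mice were C57BL/6, and the paper describes all its mice as congenic on that background. Where 4 values are given without group names, they are in this order, both WT libraries first. The methods describe an intraperitoneal and an intratracheal course of bleomycin, which differ in dose and day, and which of them the sequenced cells came from was not given in the sources used here, nor was the number of mice in a library. Libraries were made from 22405, 84166, 38873 and 128647 cells in the order above, so cell number, bleomycin and genotype differed together. Total reads were between 72513619 and 87638154. Levels are given as CPM, counts scaled to a common library size after weighting of the libraries by TMM factors, and 3 reads corresponded to at most 0.0475 CPM. No group had a replicate. The ratios below therefore compare libraries, carry no p-value, and their 95% exact intervals cover counting error only. Although the label of all 4 libraries is ILC2, macrophage and monocyte markers summed to 8746 to 22376 CPM in them and ILC2 markers to 788 to 1171 CPM, as described after the 10 genes. Most of the macrophage and monocyte sum came from 1 gene, *Lyz2*, and sums of different lists do not measure shares of cells. The targeted gene *Hps1* had 38.3 CPM in PBS-WT and 48.4 in BLEO-WT, and 16.6 in PBS-HPS1 and 21.3 in BLEO-HPS1, which was lower in both libraries labelled *Hps1*-/- but not absent.

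IL-1α and IL-1β signal through the receptor encoded by *Il1r1*, which recruits an accessory protein and MyD88 and activates NF-κB. IL-1 receptor antagonist occupies that receptor without signalling, and the product of *Il1r2* is a decoy that binds IL-1 without signalling. IL-1β and IL-18 are made as precursors that caspase-1 cleaves in the inflammasome, an assembly of a sensor such as NLRP3 with the adaptor ASC, the product of *Pycard*. IL-33 is an alarmin held in the nucleus of barrier and stromal cells. Its receptor ST2, encoded by *Il1rl1*, is a defining protein of ILC2s, whereas IL-1β and NLRP3 are best known from myeloid cells.

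The 250 bases upstream of the RefSeq start of 3 members are shown because these members gave the lowest genotype ratio after bleomycin (*Il1a*), the highest level (*Il1b*) and the largest bleomycin ratio (*Pycard*). They are from GRCm38.p6, on the minus strand in each case, at chr2:129309973-129310222 for *Il1a*, chr2:129371140-129371389 for *Il1b* and chr7:127993868-127994117 for *Pycard*. Each is written 5′ to 3′ on the strand of the gene, and capitals mark matches on either strand to the letters of 6 motifs searched.
Il1a: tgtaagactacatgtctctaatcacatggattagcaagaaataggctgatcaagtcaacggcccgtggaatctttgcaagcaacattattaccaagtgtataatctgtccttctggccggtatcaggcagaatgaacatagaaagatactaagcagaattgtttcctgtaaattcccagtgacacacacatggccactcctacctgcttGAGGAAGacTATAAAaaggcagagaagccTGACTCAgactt
Il1b: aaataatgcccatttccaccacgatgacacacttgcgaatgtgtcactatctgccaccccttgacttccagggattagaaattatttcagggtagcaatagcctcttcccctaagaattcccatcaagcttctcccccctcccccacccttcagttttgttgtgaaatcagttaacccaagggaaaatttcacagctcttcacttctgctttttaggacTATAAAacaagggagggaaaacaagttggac
Pycard: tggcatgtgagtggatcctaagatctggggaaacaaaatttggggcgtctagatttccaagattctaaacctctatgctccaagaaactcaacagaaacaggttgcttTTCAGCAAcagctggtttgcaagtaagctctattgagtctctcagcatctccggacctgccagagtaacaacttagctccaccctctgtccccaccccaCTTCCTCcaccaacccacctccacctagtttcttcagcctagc
The motifs were a TATA box (TATAAA), AP-1 (TGANTCA), PU.1 (GAGGAAG), C/EBP (TTGCNNAA), the GC box (GGGCGG) and the palindromic consensus of NF-κB. The *Il1a* window held TATAAA at positions -32 to -27 from the start, GAGGAAG at -41 to -35 and an AP-1 match at -12 to -6. The *Il1b* window held TATAAA at -31 to -26. The *Pycard* window held a C/EBP match at -142 to -135 and the complement of GAGGAAG at -43 to -37, and its capitals included no TATAAA. All 10 members were found in the RefSeq table, with 15 windows between them, of which 2 of *Il1rn* overlap. The windows searched over all genes numbered 32851 and left out 1 chromosome. TATAAA was found in 5 of the 15 windows and in 12.4% of the 32851, AP-1 in 2 (6.75%) and PU.1 in 3 (10.6%). C/EBP was found in 3 (9.56%), the GC box in 1 (32.7%) and NF-κB in 0 (1.21%). These are matches of letters and do not show that a factor was bound.

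*Il1b* was by far the most abundant of the 10 genes in each library. The gene lies on the minus strand of chromosome 2 from 129364570 to 129371139 (GRCm38 in GENCODE M21, as are all gene positions here), next to *Il1a* on the same strand from 129299610 to 129309972. *Il1b* had 655 CPM in PBS-WT and 778 in BLEO-WT, with 446 in PBS-HPS1 and 437 in BLEO-HPS1, from 51031, 61020, 44189 and 27598 reads. Both WT libraries were thus above both *Hps1*-/- libraries. Among the 14840 genes *Il1b* ranked 164th, 183rd, 208th and 431st, in the same order. *Il1a* had 27.3 CPM in PBS-WT and 46.6 in BLEO-WT, and 31.9 in PBS-HPS1 and 14.5 in BLEO-HPS1, so its highest and lowest levels were in the bleomycin libraries. An antisense gene overlaps each of the pair, *Il1bos* with 44 to 127 reads and *Gm14023* with 27 to 186 reads, and since it is not stated whether counting used strand, reads of the overlaps cannot be told apart.

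*Il18*, on the plus strand of chromosome 9 from 50554827 to 50581840, had 64.9 CPM in PBS-WT and 24.6 in BLEO-WT, with 57.4 in PBS-HPS1 and 14.5 in BLEO-HPS1. Both bleomycin libraries were below both PBS libraries. *Il33*, on the plus strand of chromosome 19 from 29925114 to 29960718, was the member with the fewest reads. It had 3.48 CPM in PBS-WT and 3.75 in BLEO-WT, and 3.41 in PBS-HPS1 and 9.39 in BLEO-HPS1, from 271, 294, 338 and 593 reads. The BLEO-HPS1 library stood alone, while the intervals of the *Il33* ratio of PBS-HPS1 to PBS-WT (-0.26 to 0.21 in log2) and of BLEO-WT to PBS-WT (-0.13 to 0.35) both included 0. *Il1rn*, the antagonist, lies on the plus strand of chromosome 2 from 24336853 to 24351494 and had 85.7 CPM in PBS-WT and 126 in BLEO-WT, with 68.2 in PBS-HPS1 and 92.2 in BLEO-HPS1. Its level was higher with bleomycin than with PBS within each genotype, although in *Hps1*-/- mice this order turned with total counts in place of TMM factors.

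The 2 receptors are neighbours on the plus strand of chromosome 1, *Il1r2* from 40074079 to 40125231 and *Il1r1* from 40225080 to 40317257. The decoy receptor *Il1r2* had 37.2 CPM in PBS-WT and 76.3 in BLEO-WT, and 44.1 in PBS-HPS1 and 38.7 in BLEO-HPS1, and the BLEO-WT library was the high one. The signalling receptor *Il1r1* had 21.3 CPM in PBS-WT and 13.4 in BLEO-WT, with 13.9 in PBS-HPS1 and 11.0 in BLEO-HPS1, and the PBS-WT library was the high one. The intervals of the log2 ratios of *Il1r1* excluded 0 in all 4 comparisons of libraries, the nearest to 0 being -0.43 to -0.15 for BLEO-HPS1 against BLEO-WT.

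Of the inflammasome genes, the sensor *Nlrp3* (chromosome 11, plus strand, 59541568 to 59566956) had 165 CPM in PBS-WT and 314 in BLEO-WT, and 192 in PBS-HPS1 and 167 in BLEO-HPS1. Like *Il1r2*, it was highest in BLEO-WT. The adaptor *Pycard* (chromosome 7, minus strand, 127989708 to 127993867) had 34.5 CPM in PBS-WT and 72.5 in BLEO-WT, with 21.7 in PBS-HPS1 and 118 in BLEO-HPS1. Both bleomycin libraries were above both PBS libraries, and the 2 *Hps1*-/- libraries were the extremes. The protease *Casp1* (chromosome 9, plus strand, 5298517 to 5307265) had 54.4 CPM in PBS-WT and 31.1 in BLEO-WT, and 38.7 in PBS-HPS1 and 22.5 in BLEO-HPS1. It was lower with bleomycin than with PBS in each genotype and lower in *Hps1*-/- than in WT with each treatment. *Pycard* overlaps the antisense gene *Gm45205*, which had 14 to 31 reads.

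**Figure D1:**
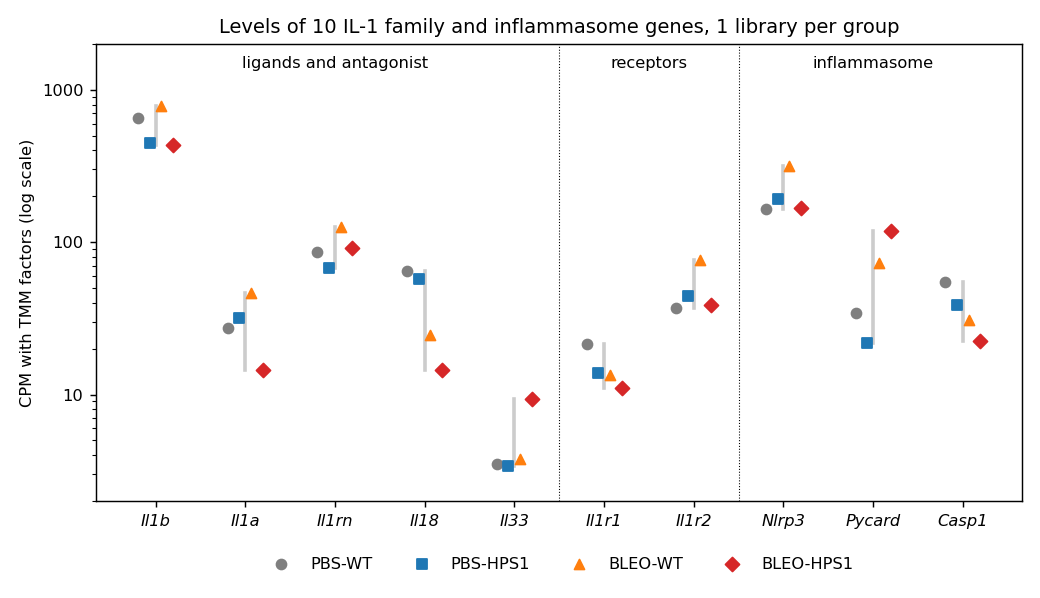
Level of each of the 10 genes in CPM (log scale) in each of the 4 libraries, 1 point per library, with a grey line from the lowest to the highest and no error bars because no group had a replicate. *Il1b* lies between 437 and 778 CPM and *Il33* between 3.41 and 9.39, *Il18* is lower in both bleomycin libraries, *Pycard* is higher in both, and *Nlrp3* and *Il1r2* peak in BLEO-WT.

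Levels of different genes were compared per kilobase of the longest protein-coding transcript. In CPM per kilobase, *Il1b* had 483 in PBS-WT and 322 in BLEO-HPS1, above every other member in each of the 4 libraries. In PBS-WT it was followed by *Il18* (73.4), *Nlrp3* (40.9), *Casp1* (36.3), *Il1rn* (34.6), *Il1r2* (26.2), *Il1a* (13.8), *Pycard* (9.07), *Il1r1* (3.66) and *Il33* (1.37). In BLEO-HPS1 the order after *Il1b* was *Nlrp3* (41.6), *Il1rn* (37.3), *Pycard* (31.1), *Il1r2* (27.2), *Il18* (16.4), *Casp1* (15.0), *Il1a* (7.37), *Il33* (3.69) and *Il1r1* (1.89). *Il33* stood above *Il1r1* per kilobase in BLEO-HPS1 and below it in the other 3 libraries. With 1 library per group it is not known which neighbours in these orders differ beyond the spread between animals. The transcript used for *Pycard*, of 3800 bases, is longer than the whole gene as RefSeq places it, so the per-length level of *Pycard* is uncertain.

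Ratios between 2 genes of a library do not depend on how libraries are scaled. Per length, *Il1b* exceeded its antagonist *Il1rn* 13.9-fold in PBS-WT and 11.3-fold in BLEO-WT, with 11.9-fold in PBS-HPS1 and 8.64-fold in BLEO-HPS1. It exceeded *Il1a* 34.9-fold, 24.3-fold, 20.4-fold and 43.7-fold in the same libraries. BLEO-HPS1 thus had the lowest excess of *Il1b* over the antagonist and the highest over *Il1a*. With the correction for transcript GC content and length described below, the highest excess over *Il1a* was in PBS-WT. *Il1b* and *Il1a* were then at log2 ratios of 0.23 and 1.17 in BLEO-WT against PBS-WT. In BLEO-HPS1 against BLEO-WT they were at -0.79 and -1.24. The decoy receptor exceeded the signalling receptor 7.15-fold, 23.3-fold, 13.0-fold and 14.4-fold. The ratio of *Il1r2* to *Il1r1* was therefore lowest in PBS-WT and highest in BLEO-WT. With correction for GC content and length, *Il1r2* was at -0.60 and *Il1r1* at 0.77 in BLEO-HPS1 against PBS-HPS1 (log2 ratios). The lowest ratio of *Il1r2* to *Il1r1* was then in BLEO-HPS1. *Il1b* exceeded *Il18* 6.58-fold and 5.08-fold in the PBS libraries but 20.6-fold and 19.6-fold in the bleomycin libraries. Per length, *Pycard* was 0.221 of *Nlrp3* in PBS-WT and 0.244 in BLEO-WT, and 0.120 in PBS-HPS1 and 0.748 in BLEO-HPS1. *Casp1* was 0.887, 0.266, 0.542 and 0.361 of *Nlrp3*. The 3 inflammasome genes thus stood in different proportions in each library, and the proportion of adaptor to sensor was highest in BLEO-HPS1.

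After bleomycin, 8 of the 10 members were lower in the *Hps1*-/- library than in the WT library and 2, *Il33* and *Pycard*, were higher. *Il1a* was 3.20-fold lower (log2 ratio -1.68, interval -1.78 to -1.57) and *Il33* was 2.49-fold higher (1.32, 1.12 to 1.53). These were the 2 members past 2-fold, 1 higher and 1 lower, where 6.72% of the 14840 genes were higher by 2-fold or more and 10.3% were lower by as much. *Il1r2* was 1.97-fold lower (-0.98, -1.05 to -0.91), *Nlrp3* 1.88-fold lower (-0.91, -0.94 to -0.88) and *Il1b* 1.78-fold lower (-0.83, -0.85 to -0.81). *Il18* (-0.76), *Casp1* (-0.47), *Il1rn* (-0.45) and *Il1r1* (-0.29) were lower by less. *Pycard* was 1.63-fold higher (0.71, 0.66 to 0.76). The median log2 ratio was -0.61 over the members and -0.04 over all genes.

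In this comparison the log2 ratio went with the composition of the transcript. Spearman's rho over the 11133 genes whose log2 CPM averaged more than 2 was 0.637 with GC content and -0.501 with length, and these genes share both libraries. After a loess correction for both, the members' median was -0.47 and that of all genes was -0.06. *Il1a* was then at -1.24, *Il1r2* at -1.13, *Nlrp3* at -0.89, *Il18* at -0.81 and *Il1b* at -0.79. These 5 genes kept most of their difference. *Il1rn* and *Casp1* came to -0.15 and -0.14, and *Il1r1*, a long transcript of 5819 bases, turned to 0.35. *Pycard* went up to 1.14 and *Il33* to 1.78, so 2 members were at least 2-fold higher and 2 lower with the correction. The corrected values of *Pycard*, here and below, rest on a transcript length that is uncertain, as said above.

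**Figure D2:**
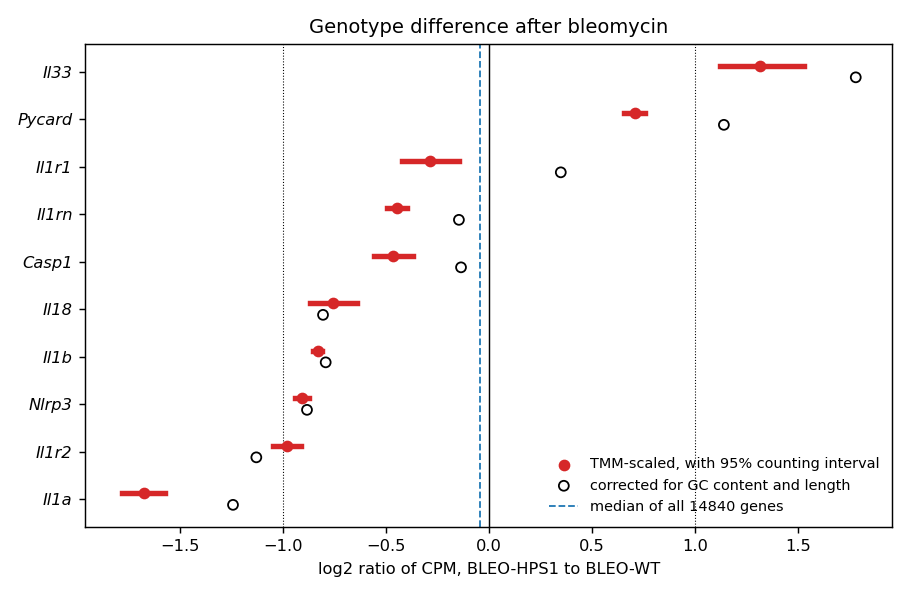
Log2 ratio of CPM of BLEO-HPS1 to BLEO-WT for each of the 10 genes, as scaled with TMM factors (red, bars for the 95% exact interval of counting error) and after correction for GC content and length (open circles), with dotted lines at 2-fold and a dashed line at the median of all genes. *Il33* and *Pycard* lie to the right of 0 and *Il1a* farthest to the left under both, while *Il1r1* lies at -0.29 and, corrected, at 0.35.

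With PBS, the genotypes were closer. None of the members was past 2-fold in either direction, where 2.16% of all genes were past it on the higher side in PBS-HPS1 and 3.11% on the lower side. The largest log2 ratios were those of *Pycard* (-0.67, interval -0.75 to -0.59), *Il1r1* (-0.62, -0.72 to -0.52), *Il1b* (-0.55, -0.57 to -0.53) and *Casp1* (-0.49, -0.56 to -0.43). *Il1r2* (0.25), *Il1a* (0.22) and *Nlrp3* (0.22) were on the higher side. The members' median was -0.25 and that of all genes -0.19. *Pycard* was thus lower in the *Hps1*-/- library than in the WT library with PBS and higher with bleomycin. *Il1a*, *Il1r2* and *Nlrp3* had the opposite order.

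Bleomycin was compared with PBS within each genotype. In WT mice *Pycard* (log2 ratio 1.07, interval 1.01 to 1.14) and *Il1r2* (1.04, 0.97 to 1.10) were at least 2-fold higher with bleomycin and *Il18* was 2.64-fold lower (-1.40, -1.48 to -1.32). Past the same threshold were 5.28% of all genes on the higher side and 8.22% on the lower side. Both higher genes were close to the threshold, and with total counts in place of TMM factors they were at 0.81 and 0.77. After correction for GC content and length *Il1r2* was below the threshold (0.89) and *Il1a* past it (1.17), so that the 2 higher genes were *Pycard* and *Il1a*. *Nlrp3* (0.93), *Il1a* (0.77) and *Il1rn* (0.55) were also higher, and *Casp1* (-0.81) and *Il1r1* (-0.67) were lower, at -0.43 and -0.31 with the correction. *Il1b* (0.25) and *Il33* (0.11) were nearest to 0, and both turned to the other sign with total counts (-0.02 and -0.15). The median was 0.40 over the members and 0.09 over all genes.

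In *Hps1*-/- mice *Pycard* was 5.46-fold higher with bleomycin (2.45, 2.38 to 2.52) and *Il33* was 2.74-fold higher (1.45, 1.26 to 1.66). *Il18* was 3.94-fold lower (-1.98, -2.08 to -1.88) and *Il1a* 2.19-fold lower (-1.13, -1.24 to -1.03). This comparison had many genes past 2-fold, with 26.2% of all genes higher and 19.6% lower, against 2 of 10 members in each direction. *Il1rn* was at 0.44 and turned to -0.21 with total counts. *Casp1* (-0.78) and *Il1r1* (-0.33) were lower, but after correction for GC content and length they were at -0.11 and 0.77. *Il1r2* (-0.19), *Nlrp3* (-0.20) and *Il1b* (-0.03) were close to 0 with TMM factors, but at -0.83, -0.84 and -0.67 with total counts. After the correction they were at -0.60, -0.27 and -0.11. *Il1a* lost its 2-fold difference with the correction (-0.33), and *Il33* lost its own with total counts (0.81). *Pycard* and *Il18* stayed past 2-fold under both.

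**Figure D3:**
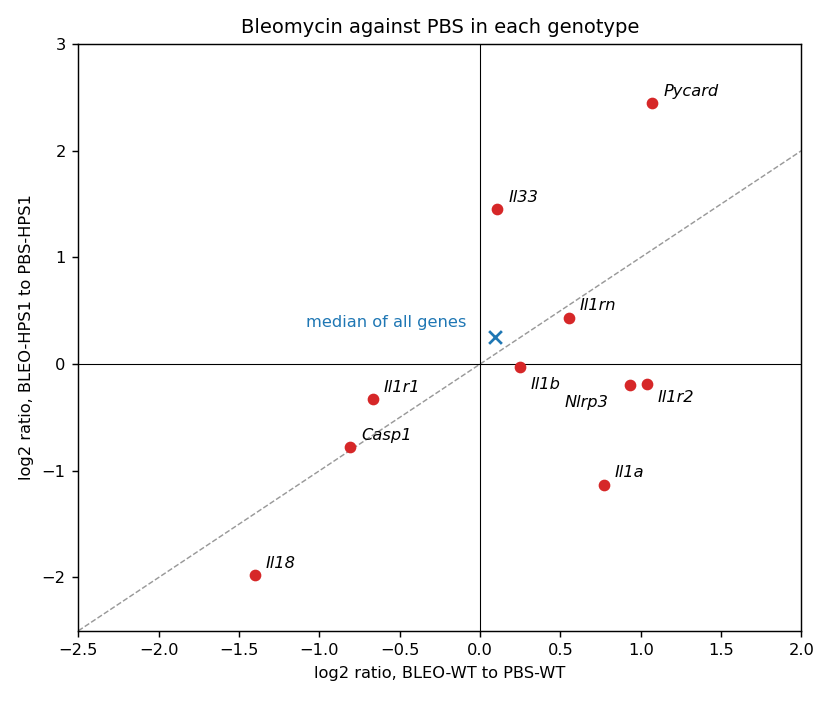
Log2 ratio of CPM of bleomycin to PBS for the 10 genes in WT mice (horizontal axis) and in *Hps1*-/- mice (vertical axis), with a dashed line where the 2 are equal and a cross at the median of all genes. *Pycard* and *Il33* lie above the line at 2.45 and 1.45 in *Hps1*-/- mice, while *Il1a*, *Il1r2* and *Nlrp3* lie to the lower right, above 0 in WT and below 0 in *Hps1*-/- mice.

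The difference between the 2 bleomycin ratios, *Hps1*-/- minus WT, was 1 or more for *Pycard* (1.38) and *Il33* (1.34) and -1 or less for *Il1a* (-1.90), *Il1r2* (-1.23) and *Nlrp3* (-1.13). Of all genes, 16.3% had a difference of at least 1 and 11.2% one of -1 or less, against 2 and 3 of the 10 members. *Il18* was lower with bleomycin in both genotypes, with a difference of -0.58, and *Casp1* had nearly equal ratios, with a difference of 0.03. *Il1b* had a difference of -0.28, *Il1rn* one of -0.12 and *Il1r1* one of 0.33. After the correction the differences of the 5 named first were 1.84, 1.78, -1.50, -1.49 and -1.07, and that of *Il1r1* was 1.08.

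The patterns over the 4 libraries were set against those of 9405 genes with a mean of at least 10 CPM, by the distance between log2 CPM values centred on each gene's mean. Over 4 libraries many genes have a similar pattern, with 992 genes within 0.5 of *Il1b*, 349 within 0.5 of *Il33* and 101 within 0.5 of *Il1a*. The nearest were *Dcxr* (0.07), *Plekho1* (0.08) and *Mgl2* (0.09) for *Pycard*. *Ddah2* (0.07), *Plvap* (0.13), one of the endothelial markers used further on, and *Hic1* (0.13) were nearest to *Il33*. *Abl2* (0.20) and *Slc7a11* (0.26) were nearest to *Il1a*, *Arid3a* (0.07) and *Lamp2* (0.09) to *Il1b*, and *Arid4a* (0.07) and *Filip1l* (0.07) to *Il18*. *Tmem5* (0.03) was nearest to *Il1rn*, *Rfx2* (0.03) to *Il1r1*, *Cir1* (0.08) to *Casp1* and *Gdf15* (0.14) to *Nlrp3*. *Itga6*, an integrin subunit, was among the 3 nearest of both *Il1r2* (0.13) and *Nlrp3* (0.14). *Mgl2*, a lectin of macrophages and dendritic cells, had 155 CPM in PBS-WT and 301 in BLEO-WT, with 93.3 in PBS-HPS1 and 492 in BLEO-HPS1. *Plvap* had 87.6, 94.5, 94.2 and 257 CPM in the same libraries.

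The rest of the pathway was described with 59 other genes in 5 lists, of which 52 were compared. In BLEO-HPS1 against BLEO-WT, 16 of the 52 were at least 2-fold lower and 0 as much higher, beside 10.3% and 6.72% of all genes, and 38 were below 0, beside 52.2% of all genes. Their median log2 ratio was -0.50, or -0.28 after correction for GC content and length, and with the correction 3 rather than 16 were at least 2-fold lower, namely *Il36g* (-1.78), *Nlrp12* (-1.46) and *Nlrp1b* (-1.07). In PBS-HPS1 against PBS-WT, 0 were at least 2-fold higher and 3 lower, where the shares of all genes were 2.16% and 3.11%. In BLEO-WT against PBS-WT there were 2 higher and 4 lower, with shares of all genes of 5.28% and 8.22%. In BLEO-HPS1 against PBS-HPS1 there were 5 higher and 15 lower, with shares of 26.2% and 19.6%, and with the correction 7 higher and 4 lower.

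Of the other ligands and binding proteins, 2 of 6 were compared. *Il36g*, an epithelial and myeloid cytokine, had 17.6 CPM in PBS-WT and 8.18 in BLEO-WT, and 7.35 in PBS-HPS1 and 2.07 in BLEO-HPS1. It was highest in PBS-WT and lowest in BLEO-HPS1. *Il18bp*, the soluble inhibitor of IL-18, had 3.14 and 3.05 CPM with PBS and 6.25 and 6.70 with bleomycin in WT and *Hps1*-/- mice, so it was higher in both bleomycin libraries, in which *Il18* was lower.

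Among 6 other receptors compared, the IL-1 receptor accessory protein *Il1rap* had 37.8 CPM in PBS-WT and 34.0 in BLEO-WT, with 31.5 in PBS-HPS1 and 12.1 in BLEO-HPS1. It and the IL-36 receptor *Il1rl2* were at least 2-fold lower in BLEO-HPS1 than in BLEO-WT (log2 ratios -1.48 and -1.07), but not after the correction (-0.83 and -0.69). The ST2 gene *Il1rl1*, whose protein was used in the sort, had 40.9, 37.3, 39.9 and 23.8 CPM in the 4 libraries. Its ratio after bleomycin was -0.65 and -0.01 with the correction. The IL-18 receptor gene *Il18r1* had 118, 37.1, 75.4 and 27.5 CPM. Like *Il18*, it was lower in both bleomycin libraries, with log2 ratios of -1.66 in WT and -1.46 in *Hps1*-/- mice. After the correction these were -1.37 and -0.57, so the 2-fold difference in *Hps1*-/- mice was lost, whereas *Il18* was at -1.32 and -2.03. The other IL-18 receptor chain, *Il18rap*, had 47.3, 37.9, 44.4 and 29.7 CPM. *Sigirr*, an inhibitory receptor of the family, had 26.0, 34.0, 22.6 and 59.9 CPM and was highest in BLEO-HPS1.

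Of 21 signalling genes, 5 were at least 2-fold lower in BLEO-HPS1 than in BLEO-WT, beside 10.3% of all genes. They were the NF-κB subunit *Rel* (log2 ratio -1.36), *Tab3* (-1.16), the NF-κB inhibitor *Tnfaip3* (-1.08), the ubiquitin ligase *Traf6* (-1.07) and *Nfkbiz*, which was just past the threshold. With the correction they were at -0.63, -0.42, -0.88, -0.51 and -0.89, so none was past 2-fold. *Tnfaip3* and *Nfkbiz*, both induced by NF-κB, had 1417 and 609 CPM in BLEO-WT and 670 and 304 in BLEO-HPS1. Of the 21 genes, 16 were below 0 in BLEO-HPS1 against BLEO-WT and 5 above it. *Nfkbia* was at -0.25, or -0.65 with the correction, and *Nfkb2* at 0.64, or 0.23 with the correction. *Myd88*, the adaptor of the receptors, had 137 CPM in PBS-WT and 141 in BLEO-WT, and 95.5 in PBS-HPS1 and 189 in BLEO-HPS1, and its ratio after bleomycin was 0.42, or 0.03 with the correction.

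The other inflammasome sensors were the list with the most members past 2-fold. Of 11 compared, 7 were at least 2-fold lower in BLEO-HPS1 than in BLEO-WT and all 11 were below 0, where the shares of all genes were 10.3% and 52.2%. The median was -1.04, or -0.55 with the correction, after which 2 of the 11 were at least 2-fold lower. *Nlrp12*, known from neutrophils and other myeloid cells, had 20.6 CPM in PBS-WT and 12.8 in BLEO-WT, with 8.84 in PBS-HPS1 and 3.62 in BLEO-HPS1. Its log2 ratio was -1.81 after bleomycin, -1.46 with the correction. The flagellin sensor *Naip6* had 27.2, 18.6, 31.0 and 6.43 CPM, and the DNA sensor *Aim2* 36.6, 29.5, 31.0 and 14.3. Their ratios after bleomycin, -1.53 and -1.05, came to -0.89 and -0.56 with the correction. *Nlrp1b*, the sensor of anthrax lethal factor, had a ratio of -1.31 before the correction at 7.13 CPM in BLEO-WT and 2.87 in BLEO-HPS1. *Naip* genes are close paralogs, so reads could have been split among them.

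Among 12 caspases, pore proteins and activators, 1 was at least 2-fold lower after bleomycin, *Nek7*, which binds NLRP3 (log2 ratio -1.01, or -0.26 with the correction). *Casp4*, the sensor of intracellular lipopolysaccharide, had 27.8, 15.2, 19.2 and 7.66 CPM in the 4 libraries, and a ratio of -0.99. *Gsdmd*, the pore protein that caspase-1 cleaves, had 72.4, 81.1, 57.7 and 126 CPM. Like *Pycard* it was lowest in PBS-HPS1 and highest in BLEO-HPS1, and its ratio after bleomycin was 0.64, or 0.19 with the correction. *Casp8* (-0.93) was lower in BLEO-HPS1 than in BLEO-WT by less than 2-fold. *Panx1* (0.58), a channel protein, was higher.

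**Figure D4:**
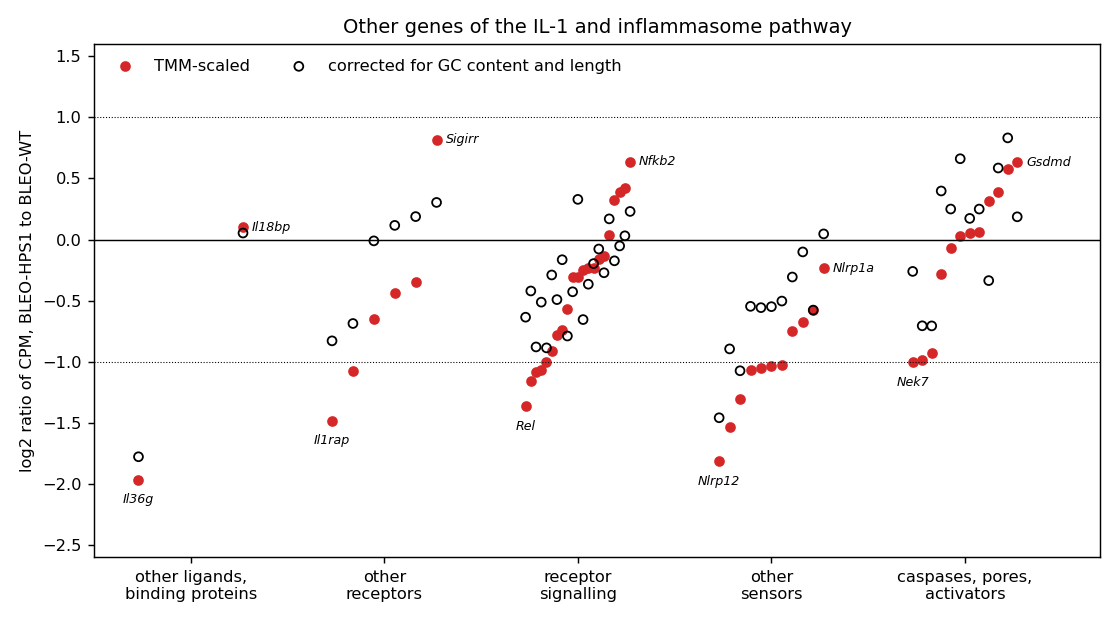
Log2 ratio of CPM of BLEO-HPS1 to BLEO-WT for the 52 other genes of the pathway that were compared, in 5 lists and ordered by size within each, as scaled with TMM factors (red) and after correction for GC content and length (open circles), with dotted lines at 2-fold and the lowest and highest gene of each list named. All 11 sensors lie below 0 before the correction, and 16 genes in all lie at or below the lower dotted line before it.

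The libraries held RNA of marker genes of several cell types, and the sort was set against it. The paper reports a very high purity of the sorted ILC2s, which was not examined here. The lineage gate included CD11b, Ly6G and Ly6C, which would remove cells with these proteins on their surface. All 14 macrophage and monocyte markers had over 10 CPM in every library. Their summed level was 12932 CPM in PBS-WT and 22376 in BLEO-WT, and 8746 in PBS-HPS1 and 21899 in BLEO-HPS1, against 788 to 1171 CPM for 10 ILC2 markers. The macrophage lysozyme *Lyz2* made up most of the macrophage and monocyte sum in each library, with 9428, 13145, 6083 and 12344 CPM. *C1qa*, a complement gene of macrophages, had 143, 1391, 73.2 and 2047 CPM. Other genes of the list went the other way, with *Siglecf*, known from alveolar macrophages, at 186, 41.6, 146 and 29.0 CPM, and *Mrc1*, the mannose receptor, at 647, 702, 621 and 266. Among ILC2 markers *Gata3* was between 25.1 and 39.1 CPM, *Thy1* between 206 and 551, and *Arg1* had 8.34 and 4.59 CPM with PBS but 387 and 257 with bleomycin. The list as a whole did not rise like *Arg1*. Its median log2 ratio was -0.20 in BLEO-WT against PBS-WT and -0.15 in BLEO-HPS1 against PBS-HPS1. In BLEO-HPS1 against BLEO-WT the median was -0.61, with 7 of 10 below 0, or -0.05 after correction for GC content and length. In no marker list was a gene at 0 in every library.

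*Il1b*, *Il1rn*, *Nlrp3* and *Pycard* are expressed by myeloid cells, whose marker lists moved with the groups. Macrophage and monocyte markers had a median log2 ratio of -0.26 in BLEO-HPS1 against BLEO-WT, with 0 of 14 at least 2-fold higher and 3 lower. Neutrophil markers had a median of -0.75, or -1.09 after correction for GC content and length, with 2 of 12 at least 2-fold higher and 5 lower. In the same comparison *Il1r2* was at -0.98, *Nlrp3* at -0.91 and *Il1b* at -0.83. In bleomycin against PBS the macrophage and monocyte markers had medians of 0.84 in WT and 1.20 in *Hps1*-/- mice. *Pycard* was at 1.07 and 2.45 in these comparisons, while *Nlrp3* was at 0.93 and -0.20, *Il1rn* at 0.55 and 0.44 and *Il1b* at 0.25 and -0.03. The 13 neutrophil markers summed to 1735 CPM in PBS-WT and 934 in BLEO-WT, with 488 in PBS-HPS1 and 485 in BLEO-HPS1. All 12 that were compared were at least 2-fold lower in PBS-HPS1 than in PBS-WT, where *Il1b* was at -0.55, *Il1r2*, which neutrophils also express, at 0.25 and *Nlrp3* at 0.22. Macrophage and monocyte markers had a median of -0.59 in that comparison, with 12 of 14 below 0, beside 70.8% of all genes. *S100a9*, the leading neutrophil marker, had 517, 287, 109 and 103 CPM.

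*Il33* is expressed by fibroblasts, endothelial and epithelial cells. The 11 fibroblast markers summed to 612 CPM in PBS-WT and 1321 in BLEO-WT, and 820 in PBS-HPS1 and 5017 in BLEO-HPS1, of which 10 were past 2-fold on the higher side in the genotype comparison after bleomycin, with a median log2 ratio of 1.98 beside 1.32 for *Il33*. The 9 endothelial markers summed to 938, 1011, 887 and 1447 CPM, with a median of 0.26 and only 1, *Plvap*, past 2-fold. The 12 lung epithelial markers summed to 1443, 919, 1075 and 664 CPM, so they were lowest where *Il33* was highest. Lymphocyte markers were also highest in BLEO-HPS1, where most members were lower than in BLEO-WT. The 8 NK and ILC1 markers summed to 187, 84.9, 268 and 298 CPM, with 7 past 2-fold on the higher side between the bleomycin libraries. The 8 B and plasma cell markers summed to 210, 143, 175 and 386 CPM, with 4 past it, and the 9 T cell markers to 926, 793, 755 and 1368 CPM, with a median log2 ratio of 0.82. The 8 dendritic cell markers were between 879 and 1271 CPM and the 8 mast cell and basophil markers between 72.4 and 141. The part of other cell types in the levels of the 10 genes was not tested. In RNA of many cells, fewer cells of a type and less RNA per cell cannot be told apart.

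**Figure D5:**
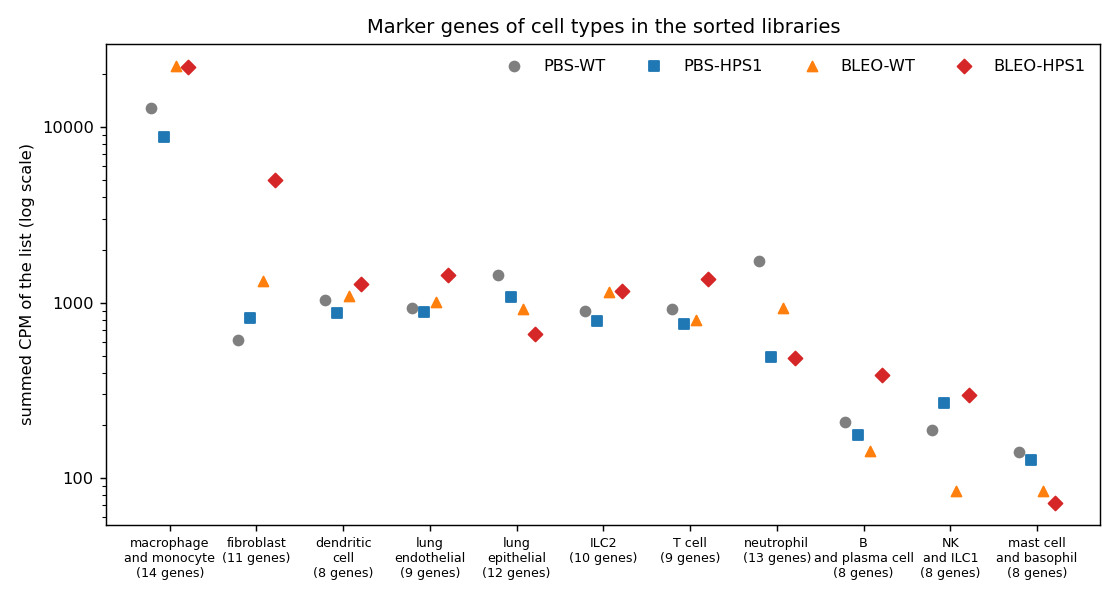
Summed CPM (log scale) of marker genes of 11 cell types in the 4 libraries, 1 point per library and no error bars, with the number of genes in each list. Macrophage and monocyte markers lie highest, at 8746 to 22376 CPM, fibroblast markers reach 5017 CPM in BLEO-HPS1, and neutrophil markers are highest in PBS-WT at 1735 CPM.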

How the data were processed

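RNA of ILC2s sorted from mouse lung was measured in 4 libraries, 1 per group, and groups were taken from the sample titles. The authors deposited a table of raw counts, in which each value is the whole number of reads assigned to an Ensembl gene, not normalized. The aligner, counting tool, genome build and annotation are not given in the sources used here. The SMARTER mRNA kit used for the libraries amplifies cDNA. PCR copies of a molecule are counted as separate reads, so counting error is all that the intervals and the limit of 3 reads describe.

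Counts were scaled with TMM factors over the 37499 genes with a read (edgeR 4.0.16, R 4.3.3), at 1.08 (PBS-WT), 0.895 (BLEO-WT), 1.27 (PBS-HPS1) and 0.816 (BLEO-HPS1). Log2 CPM used a prior count of 2, and the 14840 genes with at least 1 CPM in at least 1 library were compared. A gene was counted as higher or lower from a log2 ratio of 1 in size. With 1 library per group there was no replicate, the quasi-likelihood test of edgeR was not possible, and no p-value is given. Intervals of ratios are exact Clopper-Pearson intervals at 95%. Transcript length and GC content were those of the longest protein-coding transcript in GENCODE M21 (GRCm38), which held 48970 of the 49315 identifiers, and 99.8% of the compared genes had both. Promoter windows were RefSeq's, and 5 genes listed in all were found by another name. In simulated data for BLEO-HPS1 against BLEO-WT, 200 of 200 genes changed 4-fold were recovered among 14103 and 0 unchanged genes were called. Apart from these changes the simulated libraries shared a mean profile and varied by counting error only. The recovery therefore tells nothing about spread between animals, cell mixture or amplification. When a bias by GC content was simulated, the uncorrected ratios called 26 unchanged genes and the corrected ratios 0. A bias by length was not simulated.

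The 10 genes and all lists were chosen with earlier results of these data known. Named are the 10 genes, up to 4 genes of at least 10 CPM in their highest library with the largest ratio after bleomycin in each pathway list plus 10 receptors, adaptors and effectors fixed by name, the leading marker genes, and the nearest genes by pattern. *Nfkbiz*, *Nfkbia*, *Nfkb2*, *Panx1*, *Gata3* and *Siglecf* fall outside this rule and were named after their values were seen. Alternatives were DESeq2 size factors (1.42.0), total counts, a log2 threshold of 2, no filter on low counts or one of 10 counts in all 4 libraries, prior counts of 0.5 and 10, and a loess fit that removed the trend with transcript GC content and length (span 0.3). TMM factors from the filtered genes were added after the data were seen. The authors' PCR, protein and cell counts were not analysed here.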

Additional observations from a re-analysis of the deposited data

Results flagged for a closer look

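The bleomycin ratio had opposite signs in the 2 genotypes, beyond counting error in each, for 4 of the 10 genes and for 10.7% of the 14840 genes compared. The difference in log2 ratio, *Hps1*-/- minus WT, was -1.90 for *Il1a*, -1.23 for *Il1r2*, -1.13 for *Nlrp3* and -0.28 for *Il1b*, and in each case the WT ratio was above 0 and the *Hps1*-/- ratio below it. With 1 library per group these differences were not tested, and any gene with ratios near 0 can meet the criterion, as *Il1b* did with ratios of 0.25 and -0.03. With total counts the WT ratio of *Il1b* was -0.02, so both genotypes were then below 0.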

How the results depend on the processing

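No paired analysis was possible because each group had 1 library. Scaling by total counts moved the median log2 ratio of all genes by -0.14 in BLEO-HPS1 against BLEO-WT, 0.25 in PBS-HPS1 against PBS-WT, -0.27 in BLEO-WT against PBS-WT and -0.68 in BLEO-HPS1 against PBS-HPS1, and TMM factors from filtered genes by 0.03, 0.15, -0.09 and -0.22. Of 40 log2 ratios of the 10 genes, 33 kept their sign under 8 alternatives, and 5 of the 9 past 2-fold stayed past it. None of the 9 turned its sign.

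With total counts, 3 members were lower in BLEO-HPS1 than in BLEO-WT (1 with TMM factors), 0 higher and 2 lower in BLEO-WT against PBS-WT (2 and 1), and 1 higher in BLEO-HPS1 against PBS-HPS1 (2). The members with a difference between genotypes of 1 or more went from 2 to 0, with *Pycard* at 0.999 and *Il33* at 0.967, just under the cut-off. Of pathway genes, 1 was then lower in PBS-HPS1 (3) and 1 higher in BLEO-HPS1 against PBS-HPS1 (5). TMM factors from filtered genes gave 0 members higher in BLEO-WT against PBS-WT, with *Pycard* at 0.99 and *Il1r2* at 0.95, and 3 pathway genes higher in BLEO-HPS1 against PBS-HPS1.

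With the correction for GC content and length, 2 members were higher and 2 lower in BLEO-HPS1 against BLEO-WT, and 1 lower in BLEO-HPS1 against PBS-HPS1. In BLEO-WT against PBS-WT the count of 2 higher stayed, with *Il1a* in place of *Il1r2*. Pathway genes that were lower then numbered 3 (16) and 4 (15). With no filter, 1 pathway gene was higher in BLEO-HPS1 against BLEO-WT, 2 in PBS-HPS1 against PBS-WT, and 7 were lower in BLEO-WT against PBS-WT (4). At a log2 threshold of 2, 1 member was higher in BLEO-HPS1 against PBS-HPS1, *Pycard*, and 0 were past it in any other count. Pathway genes then numbered 1 higher in each bleomycin comparison, 2 lower in BLEO-HPS1 against PBS-HPS1, and 0 otherwise. Causes of these moves beyond the scaling and threshold themselves were not tested.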
